A study of Mus musculus with 32 samples.

Results

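The solute carrier genes of the mouse were followed through the first wave of spermatogenesis. They were chosen by name, as the protein-coding genes of GENCODE release M21 whose symbol starts with Slc followed by a digit, a rule that reads symbols and not expression. GENCODE held 371 such genes in 49 subfamilies, and 236 of them, in 46 subfamilies, were among the 20368 genes that the authors deposited as expressed, with at least 3 TPM, each transcript's share of all transcripts scaled to 1 common total, in at least 1 juvenile mouse. The other 134 genes with an identifier in the data stayed under 3 TPM in every mouse, with a median highest value of 0.56 TPM, and 9 of them were listed at 0 throughout. Of the 236 members, 170 reached 3 TPM in every mouse and 6 in fewer than 3 mice. Because the entry rule needs only 1 mouse, a gene expressed at a single age had to differ between ages to be a member, so the counts below describe these 236 genes and not every carrier of the genome. A few symbols that match, among them Slc4a1ap, Slc9a3r1, Slc9a3r2 and Slc7a6os, name binding partners or neighbours of carriers rather than carriers.

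Solute carriers are membrane proteins that move sugars, amino acids, ions, metals, nucleotides and vitamins across the plasma membrane or the membranes of organelles. Most work as exchangers or as cotransporters driven by an ion gradient, and subfamilies are numbered by sequence relation, so members of 1 subfamily usually share a type of substrate. In the seminiferous epithelium, Sertoli cells take up glucose and release lactate, and spermatocytes beyond the blood-testis barrier depend on what the Sertoli cells pass on.

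The samples came from C57BL/6J males, for which the labels give no further allele and no treatment. Germ cell suspensions of 28 juvenile mice, each mouse its own sample, covered 6 ages in days postpartum (dpp), with 3 mice at 8 dpp and 5 mice at each of 10, 12, 14, 16 and 18 dpp. The authors collected 5 mice at 8 dpp too, but left out those whose cell stages and RNA matched others of that age poorly. The spread at 8 dpp is thus that of mice kept after such a check. A further 4 samples held spermatocytes of the pachytene and diplotene stages, enriched by sedimentation from adults of 9 weeks, and each of these was a pool of 6 mice. Read counts cannot be had from TPM, so the depth behind each value is unknown, and the spread between mice is the only error given. A difference between ages is a difference of log2(TPM + 1) with its standard error (SE), from 1 limma fit over the 28 mice and all genes, with p-values adjusted over the 20368 genes.

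The juvenile suspensions, labelled as germ cells, held RNA of several cell types, and marker levels changed with age. By the paper's counts of stained cells, germ cells were the large majority in every sample. The paper also scored germ cell stages in each mouse, and those counts were not used here. The summed level of 9 Sertoli cell markers lay between 7416 and 8425 TPM at 8 dpp and between 3586 and 4754 TPM at 18 dpp. Of the 9 genes 7 fell, while Gata1 and Rhox5 rose by 0.62 ± 0.11 and 0.85 ± 0.22 (SE). A single gene, Clu, whose mean went from 5377 to 2899 TPM, made up most of the Sertoli sum at both ages. All 7 measured spermatogonium markers fell and all 7 measured spermatocyte markers rose, the latter from summed levels of 209 to 297 TPM at 8 dpp to 3344 to 5263 TPM at 18 dpp. Of the other lists, Leydig cell markers gave 3 rises in 6, macrophage markers 4 rises in 5, peritubular markers 1 fall in 5, endothelial markers 1 rise and 1 fall in 4, and red blood cell markers no call in 5. From such bulk RNA alone, fewer cells of a type and less RNA per cell cannot be told apart. At 18 dpp 2 mice stood apart: mice 4 and 5 had spermatocyte marker sums of 3405 and 3344 TPM, below the 5159 to 5262 TPM of mice 1 to 3, and Sertoli marker sums of 4754 and 4732 TPM, above the 3586 to 3751 TPM of mice 1 to 3. These 2 mice also had the 2 lowest values of their age for 40 of the 83 members that rose from 8 to 18 dpp, and the 2 highest for 68 of the 104 members that fell. They had the 2 highest for 16 of the risers and the 2 lowest for 3 of the fallers. Of the 49 members without a call they were lowest in 4 and highest in 31. Over all 20368 genes they had the 2 lowest values for 5197 and the 2 highest for 6656. At 16 dpp mice 1 and 5 had spermatocyte marker sums of 2883 and 2175 TPM. Mice 2 to 4 had 1531 to 1838 TPM. Sertoli marker sums were 5473 and 5665 TPM in mice 1 and 5 and 6311 to 7614 TPM in mice 2 to 4. Mice 1 and 5 had the 2 highest values of 16 dpp for 24 of the risers and the 2 lowest for 4. For the fallers they had the 2 lowest for 32 and the 2 highest for 1. Over all genes they were lowest for 3069 and highest for 3296. The part of cell makeup in the differences that follow was not tested.

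The 236 members together took 8172 ± 211 TPM (SD) in the 3 mice of 8 dpp and 8696 ± 377 TPM (SD) in the 5 mice of 18 dpp, with the age means between 8172 and 8708 TPM. Without the single gene Slc2a3 the sums were 8159 ± 211 and 7549 ± 197 TPM. Between 8 and 18 dpp, 83 members rose and 104 fell, while 49 did not pass the test. Among all genes 31.8% rose and 36.3% fell, and among the 13660 protein-coding genes 33.1% and 41.4%, so the shares of 35.2% and 44.1% among the members were close to those of other protein-coding genes. The median difference was -0.15 for members, -0.11 for protein-coding genes and -0.09 for all genes. Without mice 4 and 5 at 18 dpp, a setting chosen after seeing the data, 79 members rose and 114 fell. Scaling by median-of-ratios factors moved the median of all genes by 0.14 and gave 93 rises and 84 falls, with each of the 83 original rises among them and no call of the opposite sign.

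The change was not even over the 10 days. From 8 to 10 dpp 8 members (3.39%) rose, against 0.977% of all genes and 1.29% of protein-coding genes. None fell, against 0.226% and 0.198%. The count rested on few mice, since limma called 2 of the rises without mouse 1 at 8 dpp, 3 without either other mouse of that age, and 5 without mouse 2 or mouse 3 at 10 dpp. At an unadjusted p under 0.05, 48 members (20.3%) and 11.5% of all genes differed between these ages. From 10 to 12 dpp 49 members rose and 27 fell, which is 20.8% and 11.4% of them, where 12.0% and 9.39% of all genes and 15.2% and 11.3% of protein-coding genes did so. Without mouse 1 at 12 dpp the number of falls was 17. From 12 to 14 dpp limma called no member in either direction, where 0.157% of all genes rose and 0.0147% fell, and 14 members (5.93%) had an unadjusted p under 0.05, as did 9.63% of all genes. Leaving out mouse 3 at 12 dpp gave 1 rise and leaving out mouse 2 at 14 dpp 1 fall, and leaving out mice 4 and 5 at 18 dpp gave 1 rise.

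From 14 to 16 dpp 25 members rose and 34 fell, which is 10.6% and 14.4% of them. Of all genes 12.7% and 11.3% did so, and of protein-coding genes 13.5% and 14.1%. The falls numbered 17 without mouse 1 at 16 dpp and 22 without mouse 5 of that age. Median-of-ratios factors turned the split of these calls to 28 rises and 20 falls. The widest change came last: from 16 to 18 dpp 41 members rose and 112 fell, or 17.4% and 47.5%, where 23.4% and 30.6% of all genes and 23.7% and 39.3% of protein-coding genes did so. With median-of-ratios factors, which moved the median of all genes by 0.14 in this interval too, the split was 55 rises and 73 falls. Over the 6 ages together 218 members (92.4%) differed by limma's F test, compared with 77.6% of all genes and 86.2% of protein-coding genes. The age with the highest mean was 8 dpp for 32 members, 10 dpp for 50, 12 dpp for 33, 14 dpp for 36, 16 dpp for 31 and 18 dpp for 54.

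**Figure D1:**
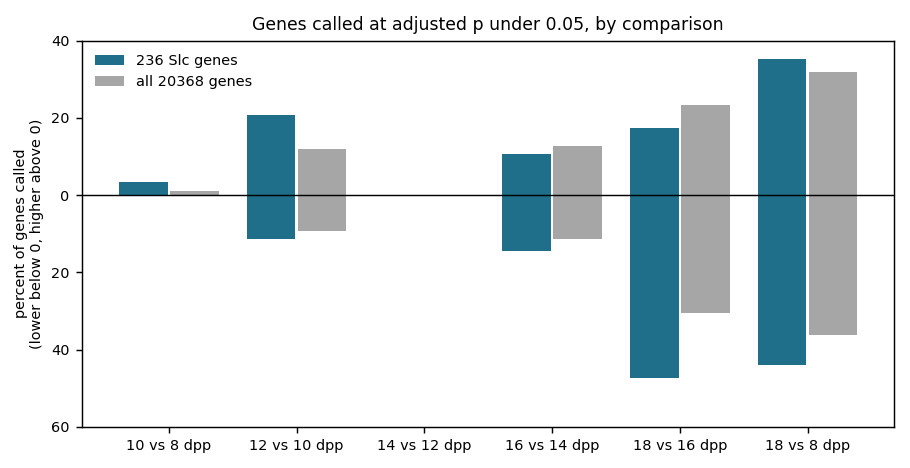
Percent of the 236 Slc genes (dark bars) and of all 20368 genes (grey bars) called at an adjusted p under 0.05 in each comparison of ages, with rises above and falls below 0. No Slc gene was called from 12 to 14 dpp, and 47.5% of them fell from 16 to 18 dpp against 30.6% of all genes.

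Sugar carriers had the largest change in level of any substrate class. The 19 members summed to 359 ± 18.7 TPM (SD) over the 3 mice of 8 dpp and 1519 ± 452 TPM (SD) over the 5 mice of 18 dpp, and 8 of them rose, 6 fell and 5 did not pass the test. Most of that sum was Slc2a3, the neuronal-type glucose transporter GLUT3, which made up 3.73% of the class at 8 dpp, 50.2% at 16 dpp and 74.4% at 18 dpp. Slc2a3 was at 13.5, 12.8 and 13.8 TPM in the 3 mice of 8 dpp and at 1546, 1384, 1382, 725 and 700 TPM in mice 1 to 5 of 18 dpp. No mouse of 8 dpp came near any mouse of 18 dpp, and within 18 dpp mice 4 and 5 were the low pair. The difference was 6.24 ± 0.27 on the log2 scale (SE, limma adjusted p = 1.76e-16). Its age means were 14.97 TPM at 10 dpp, 25.5 TPM at 12 dpp, 48.5 TPM at 14 dpp and 355 TPM at 16 dpp, and the steps that passed the test were 10 to 12 dpp (0.73 ± 0.23, adjusted p = 0.0247), 14 to 16 dpp (2.80 ± 0.23) and 16 to 18 dpp (1.69 ± 0.23). GENCODE places a pseudogene, Gm4482, over the Slc2a3 locus at chr6:122727809-122801640 on the minus strand.

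Slc2a5, the fructose transporter GLUT5, followed the same course at a lower level. Its values were 0.36, 1.90 and 0.69 TPM at 8 dpp, then 191, 175, 161, 62.6 and 46.2 TPM in mice 1 to 5 of 18 dpp. All mice of 18 dpp were above all mice of 8 dpp, with a difference of 5.88 ± 0.39 (SE, limma adjusted p = 3.96e-13). Slc2a8, which encodes the intracellular hexose carrier GLUT8, rose less, from 14.5 ± 2.06 to 26.2 ± 8.53 TPM (difference 0.76 ± 0.17, adjusted p = 0.000363). Slc2a1, the ubiquitous glucose transporter GLUT1, had 20.6 ± 2.23 TPM at 8 dpp, 35.2 ± 3.49 TPM at 12 dpp and 21.2 ± 4.32 TPM at 18 dpp. It rose from 10 to 12 dpp (0.57 ± 0.11) and fell from 16 to 18 dpp by 0.53, and the ends did not differ by the test (0.02 ± 0.13, adjusted p = 0.879). The largest fall of the class was that of Slc50a1, a sugar carrier of the SWEET family, from 33.5 ± 2.32 to 15.7 ± 5.25 TPM (-1.10 ± 0.17).

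Monocarboxylate carriers, which pass lactate and pyruvate, went in different directions. Slc16a7, the high-affinity pyruvate and lactate carrier MCT2, was at 0.93, 1.75 and 1.01 TPM in the mice of 8 dpp and at 37.5, 30.9, 29.6, 14.2 and 12.7 TPM in those of 18 dpp. The 2 groups did not overlap, and the gene rose by 3.44 ± 0.30 (SE, limma adjusted p = 1.33e-10). The carriers MCT1 (Slc16a1) and MCT4 (Slc16a3, the lactate exporter of glycolytic cells) fell over the same span, Slc16a1 from 64.4 ± 1.18 to 52.4 ± 6.67 TPM and Slc16a3 from 81.2 ± 15.7 to 46.2 ± 5.48 TPM. Slc16a3 did not fall at once. It had 70.1, 99.2 and 74.3 TPM at 8 dpp, rose to a mean of 136 ± 10.4 TPM at 10 dpp (0.75 ± 0.13, adjusted p = 0.00219) and declined at later ages. Slc16a7 accounted for 0.564% of the summed level of the 10 Slc16 members at 8 dpp and for 15.1% at 18 dpp. The accessory chains that bring these carriers to the membrane both rose: Bsg (basigin) from 476 ± 9.42 to 716 ± 15.4 TPM (0.59 ± 0.05) and Emb (embigin) from 13.6 ± 1.45 to 42.1 ± 4.10 TPM (1.56 ± 0.14). In the adult samples Bsg had 716 ± 11.8 TPM and Emb 2.23 ± 0.83 TPM.

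Slc13a5, the plasma membrane citrate transporter, was the largest rise among the dicarboxylate carriers. It was listed at 0.39, 0 and 0.37 TPM at 8 dpp and at 68.6, 63.1, 64.8, 31.8 and 28.2 TPM at 18 dpp. Groups were far apart, and the difference was 5.30 ± 0.33 (SE, limma adjusted p = 1.4e-13), of which 3.20 ± 0.29 lay between 14 and 16 dpp. A noncoding transcript on the other strand, 1700051A21Rik, overlaps Slc13a5 and had 0 TPM in every mouse of 8 dpp and 61.2 ± 23.2 TPM at 18 dpp. Overlap was judged by gene position and not by exons. Whether the counting used strand is not given in the sources used here, so how reads were divided between these genes is uncertain. Other named members, among them Slc2a1, Slc33a1, Slc34a2 and Slc44a1, also overlap genes on the other strand.

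**Figure D2:**
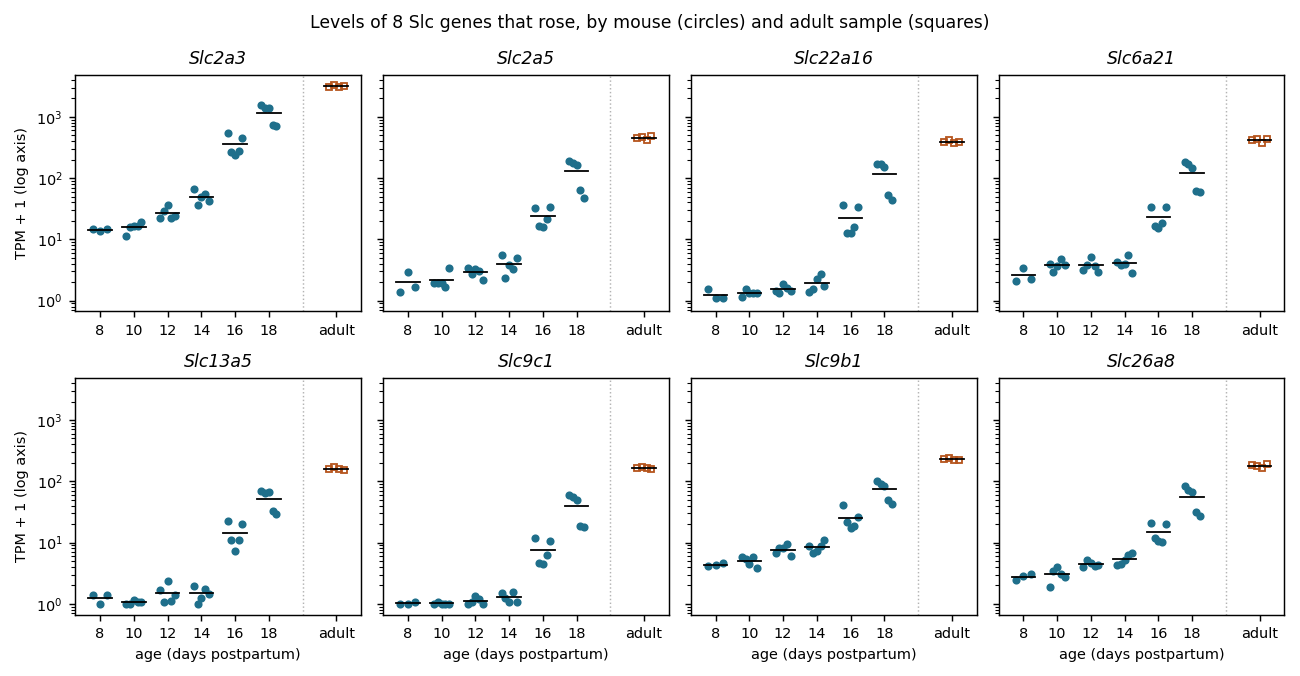
TPM + 1 on a log axis against age in dpp for 8 Slc genes that rose, with a circle for each mouse, a square for each adult pachytene and diplotene sample, and a bar at each mean. Slc2a3 runs from 12.8 TPM in the lowest mouse of 8 dpp to 1546 TPM in the highest mouse of 18 dpp, and mice 4 and 5 of 18 dpp, the 2 points on the right of that age, lie below mice 1 to 3 in all 8 panels.

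Organic ion, amine and related carriers had the highest class median, 0.47, with 9 rises, 4 falls and 3 members without a call among 16 of the 45 such genes in GENCODE. Slc22a16, a carnitine and organic cation transporter, had the largest difference of all 236 members. Its values were 0.52, 0.12 and 0.10 TPM at 8 dpp and 171, 169, 153, 51.99 and 42.5 TPM in mice 1 to 5 of 18 dpp. No values of the 2 ages overlapped, and the difference was 6.35 ± 0.39 (SE, limma adjusted p = 9.79e-14). It stayed under 1 TPM on average up to 14 dpp (0.93 ± 0.54 TPM), then reached 21.3 ± 11.8 TPM at 16 dpp. In the same Slc22 subfamily, Slc22a17, which encodes a receptor for lipocalin-2, was at 113, 136 and 119 TPM at 8 dpp and at 35.2, 31.2, 35.8, 43.3 and 49.4 TPM at 18 dpp, a change of -1.64 ± 0.11. Slc22a14 entered the table through 1 mouse: at 18 dpp it had 3.32 TPM in mouse 1 and 0.15 to 0.93 TPM in the others, and it did not pass the test from 8 to 18 dpp (0.46 ± 0.29, adjusted p = 0.157). Slc44a1, a choline transporter, had 66.2, 56.7 and 61.6 TPM at 8 dpp and 15.3 to 25.5 TPM at 18 dpp, a change of -1.66 ± 0.12.

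The amino acid class held both the largest fall of the whole set and a pair of large rises. Of its 40 members 14 rose, 22 fell and 4 did not pass the test, and the class sum was 1673 ± 65.6 TPM at 8 dpp and 1296 ± 72.8 TPM at 18 dpp. Slc1a6, the glutamate transporter EAAT4, was at 46.8, 49.5 and 44.7 TPM in the mice of 8 dpp and at 1.15, 2.34, 1.05, 3.08 and 2.01 TPM in those of 18 dpp. The lowest mouse of 8 dpp was far above the highest of 18 dpp, and the difference was -4.08 ± 0.27 (SE, limma adjusted p = 3.22e-13). Its mean was 47.3 ± 8.37 TPM at 10 dpp and 15.3 ± 3.25 TPM at 12 dpp, a step of -1.57 ± 0.23, and it fell again in both intervals after 14 dpp. Slc38a1, a glutamine carrier (SNAT1), took the same early step (-1.43 ± 0.19 from 10 to 12 dpp) and went from 7.57, 7.26 and 7.30 TPM at 8 dpp to between 0.56 and 1.47 TPM at 18 dpp. Its relative Slc38a2 (SNAT2) was far more abundant, with 220, 228 and 208 TPM at 8 dpp and 84.7, 78.4, 69.6, 102 and 96.9 TPM at 18 dpp, and changed by -1.34 ± 0.12.

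The large neutral amino acid exchanger LAT1 is a dimer of a light chain, Slc7a5, and a heavy chain, Slc3a2, and both were among the most abundant members. Slc7a5 was at 478, 499 and 465 TPM at 8 dpp and at 230, 229, 250, 310 and 302 TPM at 18 dpp, a change of -0.87 ± 0.09 (SE, limma adjusted p = 8.15e-10). Slc3a2 fell by less, from 226 ± 6.11 to 165 ± 35.2 TPM (-0.47 ± 0.10, adjusted p = 0.0002). Slc6a8, the X-linked creatine transporter, fell from 42.9 ± 2.95 to 10.2 ± 3.29 TPM (-2.02 ± 0.18). Slc6a6, the taurine transporter, fell from 16.1 ± 0.95 to 11.7 ± 3.30 TPM (-0.46 ± 0.17), and Slc1a5, the neutral amino acid exchanger ASCT2, from 24.9 ± 1.63 to 18.2 ± 6.51 TPM (-0.49 ± 0.20). Slc15a2, the peptide transporter PEPT2, was low throughout and fell from 3.74 ± 1.53 TPM at 16 dpp to 1.44 ± 0.53 TPM at 18 dpp (-0.93 ± 0.26).

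The rises of this class were led by 2 members of the Slc6 subfamily, which is named for neurotransmitter transporters. Slc6a21 had 1.12, 2.38 and 1.22 TPM at 8 dpp and 181, 166, 144, 60.0 and 57.3 TPM at 18 dpp, and Slc6a16 had 0, 0.13 and 0.49 TPM and then 55.6, 56.8, 46.8, 11.2 and 15.1 TPM. In both genes every mouse of 18 dpp was above every mouse of 8 dpp, with mice 4 and 5 lowest. The differences were 5.44 ± 0.33 for Slc6a21 and 4.72 ± 0.42 for Slc6a16. The 2 genes are near each other on chromosome 7, Slc6a16 at chr7:45241085-45273367 and Slc6a21 at chr7:45277513-45288998 of GRCm38, both on the plus strand.

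**Figure D3:**
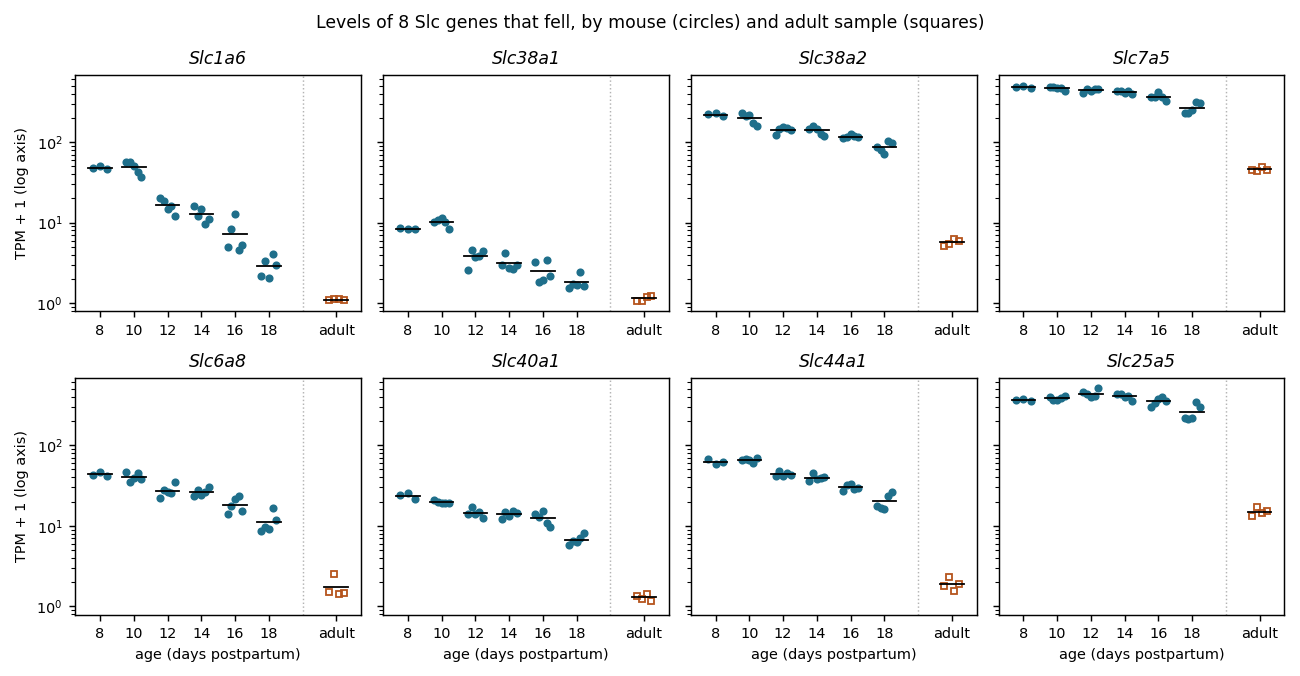
TPM + 1 on a log axis against age in dpp for 8 Slc genes that fell, with a circle for each mouse, a square for each adult pachytene and diplotene sample, and a bar at each mean. Slc1a6 drops between 10 and 12 dpp, from a mean of 47.3 to 15.3 TPM, while Slc7a5 keeps means of 418 TPM or more up to 14 dpp.

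Carriers of protons, sodium, bicarbonate and other small ions were split evenly, with 14 rises, 14 falls and 6 members without a call among 34. Among the rises, 3 belong to transporters known from sperm. Slc9c1, the sperm sodium-proton exchanger, was listed at 0, 0 and 0.06 TPM at 8 dpp and at 58.95, 53.4, 49.3, 17.4 and 16.7 TPM at 18 dpp. Slc9b1, a sodium-proton antiporter of the sperm tail, rose from 3.37 ± 0.26 to 72.7 ± 26.2 TPM (3.99 ± 0.26), and Slc26a8, a testis anion transporter, from 1.76 ± 0.29 to 54.9 ± 24.8 TPM (4.21 ± 0.30). Slc9c1 had not passed 1 TPM in any mouse of 14 dpp, and its first called step was 14 to 16 dpp (2.45 ± 0.30, limma adjusted p = 4.89e-07).

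Slc9a2, the exchanger NHE2, rose earlier than those 3 genes. It was at 0.92, 0.81 and 0.71 TPM at 8 dpp and at 11.5, 8.49, 9.88, 13.9 and 11.9 TPM at 18 dpp, without overlap. Its largest step lay between 10 and 12 dpp (1.41 ± 0.15, limma adjusted p = 9.28e-08), and from 16 to 18 dpp it did not pass the test (0.01 ± 0.15, adjusted p = 0.948). Mice 4 and 5, low for the late risers at 18 dpp, had the 2 highest values of Slc9a2 at that age. Slc4a5, a sodium bicarbonate cotransporter, also rose from 10 to 12 dpp, from 5.21 ± 1.14 to 14.7 ± 4.35 TPM (1.31 ± 0.19), but had 5.68 to 12.6 TPM in the mice of 8 dpp. The X-linked Slc9a7, an exchanger of the trans-Golgi network, fell from 7.61 ± 0.43 to 1.71 ± 0.40 TPM (-1.68 ± 0.15). Slc12a2, the sodium-potassium-chloride cotransporter NKCC1, fell from 29.8 ± 0.13 to 22.1 ± 0.96 TPM (-0.41 ± 0.07).

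Mitochondrial carriers formed the largest class. All but 3 of the 47 Slc25 genes of GENCODE were members, and these 44 summed to 2103 ± 33.5 TPM at 8 dpp and 2175 ± 103 TPM at 18 dpp, with 17 rises, 17 falls and 10 members without a call. The class median was -0.04, and 0.12 with median-of-ratios factors, which gave 20 rises and 14 falls. The most abundant were the phosphate carrier Slc25a3, which fell from 357 ± 7.10 to 266 ± 28.5 TPM, and the citrate carrier Slc25a1, with 192 ± 10.7 TPM at 8 dpp, 247 ± 9.60 TPM at 12 dpp and 167 ± 24.9 TPM at 18 dpp. Slc25a39, which carries glutathione into mitochondria, had 177, 199 and 197 TPM at 8 dpp and 480, 437, 437, 360 and 319 TPM at 18 dpp, so that all mice of 18 dpp exceeded all of 8 dpp. It rose by 1.07 ± 0.09 (SE, limma adjusted p = 4.49e-11).

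The 3 ADP/ATP carriers of the mouse differed from each other. Slc25a5 (ANT2), which is X-linked, had 363, 373 and 353 TPM at 8 dpp, a mean of 436 ± 43.6 TPM at 12 dpp, and 215, 213, 217, 340 and 298 TPM at 18 dpp, a change of -0.53 ± 0.12 from 8 to 18 dpp (adjusted p = 0.000288). Slc25a4 (ANT1) had 120, 126 and 117 TPM at 8 dpp and 96.2, 94.9, 98.0, 127 and 142 TPM at 18 dpp, with overlap, and did not pass the test (-0.14 ± 0.11, adjusted p = 0.274). Slc25a31 (ANT4), the form known from meiotic germ cells, had 130, 105 and 131 TPM at 8 dpp and 150, 156, 149, 156 and 178 TPM at 18 dpp, without overlap, and rose by 0.37 ± 0.10 (adjusted p = 0.00134). Of the summed level of the 3 genes, Slc25a31 took 20.2% at 8 dpp and 30.5% at 18 dpp. ADP/ATP carriers are closely similar in sequence and have processed copies, so how the authors' estimates divided reads among them is uncertain.

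Several Slc25 genes were near 0 until 16 dpp. Slc25a54 was listed at 0 in all mice of 8 and 10 dpp and reached 1.95 to 12.1 TPM at 18 dpp, and Slc25a2, an ornithine carrier, went from 0.70 ± 0.35 TPM at 16 dpp to 12.4 ± 9.30 TPM at 18 dpp (2.58 ± 0.37). The other ornithine carrier, Slc25a15, fell from 8.61 ± 0.65 TPM at 8 dpp to 3.23 ± 0.71 TPM at 18 dpp (-1.20 ± 0.14). Slc25a45 had the largest rise of any member from 8 to 10 dpp, from 16.8, 22.8 and 18.8 TPM to a mean of 38.5 ± 4.61 TPM (0.95 ± 0.13, limma adjusted p = 0.000176), and its highest mean was 65.0 ± 5.08 TPM at 14 dpp.

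Among 25 metal carriers 13 fell, 7 rose and 5 did not pass the test. With median-of-ratios factors the falls numbered 9 and the rises 7, and the class median moved from -0.20 to -0.03. Slc40a1, the iron exporter ferroportin, was at 23.2, 24.7 and 20.4 TPM at 8 dpp and at 4.77, 5.53, 5.23, 6.08 and 7.09 TPM at 18 dpp, a change of -1.82 ± 0.13 (SE, limma adjusted p = 1.31e-12). The iron importer Slc11a2 (DMT1) had 96.4 ± 15.2 TPM at 8 dpp, 134 ± 19.03 TPM at 12 dpp and 89.1 ± 11.2 TPM at 18 dpp, and the ends did not differ by the test (-0.11 ± 0.11, adjusted p = 0.399). Among zinc carriers, Slc39a8 (ZIP8) rose from 1.77 ± 0.35 to 14.3 ± 5.42 TPM (2.39 ± 0.25), and Slc30a5 (ZnT5) fell from 35.6 ± 1.48 to 26.9 ± 1.76 TPM (-0.39 ± 0.06). Slc30a3 (ZnT3), known for loading zinc into synaptic vesicles, rose from 1.27 ± 0.17 to 43.1 ± 20.2 TPM (4.14 ± 0.30). On the other strand Slc30a3 overlaps Dnajc5g, which itself had 2.08 ± 0.63 TPM at 8 dpp and 71.7 ± 23.7 TPM at 18 dpp, so the value of Slc30a3 is uncertain in the same way as that of Slc13a5.

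The remaining classes were smaller or changed less. Among 6 members of the class of phosphate and vesicular glutamate carriers, Slc34a2 (NaPi-IIb) rose from 1.04 ± 0.90 to 26.2 ± 13.2 TPM (3.65 ± 0.38). The housekeeping phosphate importer Slc20a1 (PiT1) fell from 94.9 ± 6.70 to 45.5 ± 4.11 TPM (-1.05 ± 0.14). Of 25 nucleoside and nucleotide sugar carriers 4 rose, 11 fell and 10 did not pass the test, and with median-of-ratios factors 7 rose and 8 fell. Slc35e3 (-1.49 ± 0.13) and Slc35g1 (-1.40 ± 0.10) had the largest falls, and Slc35g3 the largest rise (1.30 ± 0.26, from 0.43 ± 0.24 to 2.60 ± 0.94 TPM). The nucleoside transporter Slc29a1 (ENT1) and the X-linked UDP-galactose transporter Slc35a2 did not differ by the test between 8 and 18 dpp (0.07 ± 0.13 and 0.19 ± 0.14).

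Of 8 vitamin and heme carriers 5 fell and 1 rose. The folate carrier Slc19a1 fell from 15.7 ± 1.502 to 7.30 ± 2.00 TPM (-1.04 ± 0.14), and Col18a1, whose locus overlaps that of Slc19a1, had 423 ± 6.60 TPM at 8 dpp and 158 ± 25.3 TPM at 18 dpp. The 2 riboflavin carriers in the table moved apart: Slc52a3 fell from 199 ± 21.98 to 170 ± 21.03 TPM (-0.22 ± 0.09) and Slc52a2 rose from 7.41 ± 0.76 to 14.3 ± 1.78 TPM (0.86 ± 0.11). Of 6 fatty acid and acetyl-CoA carriers 4 fell, led by Slc27a3, a fatty acid transport protein (-0.91 ± 0.15), and 1 rose, the acetyl-CoA transporter Slc33a1 of the endoplasmic reticulum (1.06 ± 0.09).

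**Figure D4:**
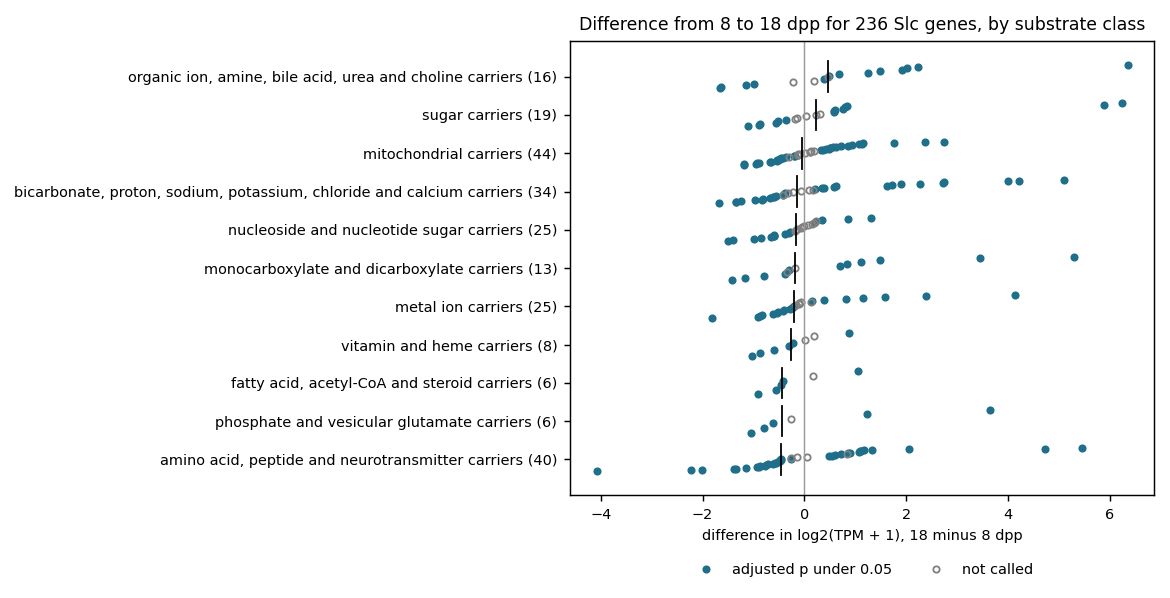
Difference in log2(TPM + 1) from 8 to 18 dpp for each of the 236 Slc genes, in rows by substrate class with the number of genes in brackets, where filled circles passed the adjusted p of 0.05, open circles did not, and the bar is the class median. Classes are ordered by median, from -0.46 for amino acid carriers to 0.47 for organic ion carriers, and every class holds both rises and falls.

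The spermatocyte samples of adult mice were set beside these levels without a test, because their table was made and normalized apart from the juvenile one. They were enriched and not pure: the list of 6 spermatid markers summed to 872 to 1189 TPM in them and to at most 16.98 TPM in any juvenile mouse, and Sertoli markers summed to 320 to 469 TPM. The part of these cells in the adult levels was not tested. In these 4 samples 132 members (55.9%) reached 3 TPM in every sample, against 55.7% of the 20366 genes shared by both tables. Of the 83 members that had risen from 8 to 18 dpp, 47 had a higher mean in adult samples than at 18 dpp, and 15 had an adult mean of at least 100 TPM. Among the 104 that had fallen, 2 were higher in adult samples than at 18 dpp, and 37 had an adult mean under 1 TPM. Of all 236 members 55 were higher in adult samples, and the median of their means was 16.4 TPM at 18 dpp and 5.12 TPM in adult samples. Counts of this kind over all genes that rose or fell were not made. The 5 highest adult means were those of Slc2a3 (3144 ± 97.0 TPM, n = 4), Slc25a39 (761 ± 25.1), Slc2a5 (455 ± 26.8), Slc6a21 (416 ± 29.3) and Slc22a16 (388 ± 20.4).

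Slc2a3 made up 32.2% of the summed level of all 236 members in adult samples, and 84.1% of that of the sugar carriers. Slc2a1, in contrast, had 1.495 ± 0.47 TPM there. Within the Slc16 subfamily Slc16a7 took 82.4% of the adult sum, with 113, 99.3, 126 and 120 TPM in the 4 samples, whereas Slc16a1 had 5.25 ± 0.76 TPM and Slc16a3 9.40 ± 0.71 TPM. Among the ADP/ATP carriers Slc25a31 took 83.7%, with 115 ± 5.42 TPM, and Slc25a4 and Slc25a5 had 8.46 ± 2.27 and 14.1 ± 1.66 TPM. Not every gene that rose in juveniles was high in adults. Slc9a2 had 2.70 ± 0.91 TPM in adult samples, Slc25a45 4.26 ± 1.30 TPM and Slc4a5 0.31 ± 0.10 TPM. The reverse held for Slc22a14, with a mean of 1.07 TPM at 18 dpp and 27.3 ± 10.4 TPM in adult samples, and its locus overlaps several other genes.

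**Figure D5:**
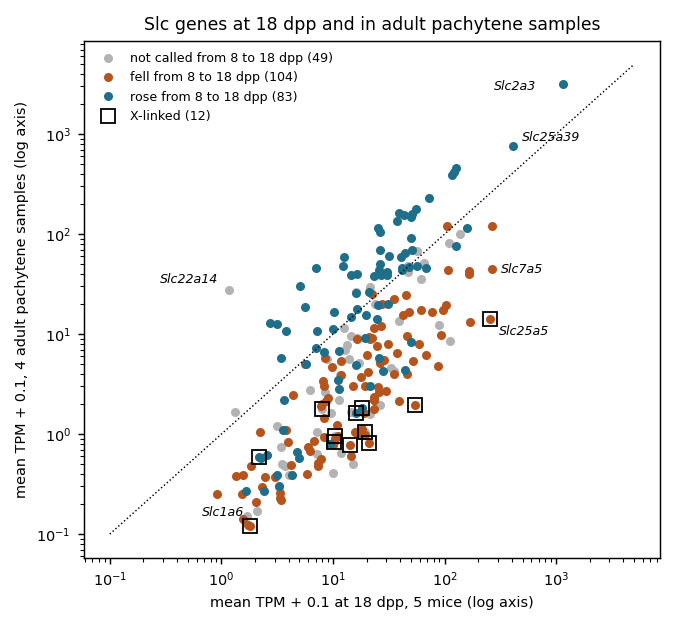
Mean TPM + 0.1 at 18 dpp (5 mice) against mean TPM + 0.1 in the adult pachytene and diplotene samples (4 pools), both on log axes, for 236 Slc genes coloured by their call from 8 to 18 dpp, with squares around the 12 X-linked genes and a dotted line of equal values. Slc genes that fell lie below the line but for 2, and all 12 X-linked genes lie below it. Of the 236 Slc genes 55 lie above it.

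Of the members, 12 are X-linked. From 8 to 18 dpp 3 of them rose and 6 fell, with a median of -0.42, and of all 652 X-linked genes tested 10.4% rose and 62.3% fell, with a median of -0.56. The 224 autosomal members had a median of -0.14. The falls included those of Slc6a8, Slc9a7, Slc25a5 and Slc38a5, and the rises were those of Slc25a43, Slc6a14 and Slc25a14, of which the last 4 are named here after their values were seen. All 12 had lower means in adult samples than at 18 dpp, and 7 of the 12 adult means were under 1 TPM. The highest was the 14.1 TPM of Slc25a5. Of all 236 members 55 had a higher mean in adult samples, and for all 652 X-linked genes this was not counted.

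Transcript usage, the percent of a gene's TPM given to each transcript, was compared between 8 and 18 dpp for 373 transcripts of 107 members. By limma 15 transcripts (4.02%) of 8 members changed by at least 20 points, against 2.77% of all 27116 transcripts tested. None of the 15 calls held with mouse number as a block, although the numbers did not pair the mice. The largest changes were in Slc9b1. Its transcript Slc9b1-201, protein coding, took 10.5 ± 18.2% (SD) of the gene in the 3 mice of 8 dpp and 73.7 ± 7.05% (SD) in the 5 mice of 18 dpp, while Slc9b1-204, a retained intron form, went from 47.95 ± 23.4% to 0.90 ± 1.33%. At 8 dpp the gene had only 3.37 TPM, and its transcripts varied widely between the 3 mice. Slc25a53, a mitochondrial carrier on the X chromosome, had less spread: Slc25a53-214 took 12.8 ± 0.92% at 8 dpp and 53.1 ± 4.33% at 18 dpp (SE of the change 2.50 points, adjusted p = 0.000488), at gene levels of 10.0 ± 1.73 and 7.90 ± 1.07 TPM. Zcchc18, a protein-coding gene on the other strand, overlaps Slc25a53 and had 7.91 ± 1.28 TPM at 8 dpp and 12.3 ± 2.17 TPM at 18 dpp, so the values of Slc25a53 are uncertain in the same way as those of Slc13a5. The others, named after their values were seen, were Slc19a2, Slc22a21, Slc25a21, Slc25a35, Slc41a3 and Slc4a1ap. The number of transcripts called was 7 without mouse 2 at 8 dpp and 9 without mouse 1.

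Promoters were read from RefSeq on GRCm38.p6, as windows from 250 bases before to 50 bases after a transcription start, and 183 members had at least 1 window, 237 in all. Of 7 motifs searched on both strands, the GC box GGGCGG was in 69.6% of these windows and in 35.6% of all 32817 windows. All windows came from 26994 genes, which were not limited to expressed or protein-coding genes as the members were. Motif shares over expressed protein-coding genes, or over all genes that rose or fell, were not computed. By direction, 43 of 69 members that rose (62.3%), 64 of 76 that fell (84.2%) and 30 of 38 without a call (78.9%) had a GC box in some window. Median GC content was 58.0% in windows of risers, 63.0% in those of fallers and 63.2% in those without a call. The shortened site TGACGT of the cAMP response element was in 10.1% of the members' windows and 7.51% of all windows, and some window held it in 4.35% of the members that rose and 18.4% of those that fell. The CCAAT box, CCAAT, was in some window of 42.0% of the members that rose and 43.4% of those that fell, and the TATA box, TATAAA, of 13% and 10.5%. Per window these 2 motifs had shares of 35.9% and 8.86% among the members and 37.4% and 13.6% over all windows. The E2F motif TTCCCGCC was in 5.06% of the members' windows and 2.19% of all windows, and in some window of 5.80% of the members that rose and 9.21% of those that fell. The whole cAMP response element TGACGTCA, which contains the shortened site, and the RFX X-box were in 1.27% and 0.422% of the members' windows and in 1.79% and 1.29% of all windows. Motif letters in a window are a description, and binding was not measured. The 100 bases just before the start are printed for the 3 largest rises and the 3 largest falls that had an entry with a start near that of GENCODE, to show how the 2 groups compare in base content. GC boxes are in capitals on either strand.
Slc22a16, rise, chr10:40570236-40570335, plus strand: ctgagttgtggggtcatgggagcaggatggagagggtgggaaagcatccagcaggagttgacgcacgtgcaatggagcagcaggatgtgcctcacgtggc
Slc2a5, rise, chr4:150119183-150119282, plus strand: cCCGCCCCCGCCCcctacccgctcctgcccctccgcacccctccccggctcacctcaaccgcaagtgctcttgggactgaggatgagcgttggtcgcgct
Slc13a5, rise, chr11:72267223-72267322, minus strand: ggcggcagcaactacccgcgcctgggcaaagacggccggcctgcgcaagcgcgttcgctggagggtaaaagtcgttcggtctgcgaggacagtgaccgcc
Slc1a6, fall, chr10:78780396-78780495, plus strand: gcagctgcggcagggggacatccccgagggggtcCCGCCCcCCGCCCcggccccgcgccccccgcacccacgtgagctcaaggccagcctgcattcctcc
Slc9a7, fall, chrX:20291828-20291927, minus strand: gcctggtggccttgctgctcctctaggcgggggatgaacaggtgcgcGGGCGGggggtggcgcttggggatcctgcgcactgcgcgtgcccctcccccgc
Slc44a1, fall, chr4:53440313-53440412, plus strand: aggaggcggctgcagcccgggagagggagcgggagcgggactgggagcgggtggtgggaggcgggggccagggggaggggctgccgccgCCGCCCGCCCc
The 3 falls have 2, 1 and 2 boxes and GC contents of 79.0%, 75% and 83.0%. Among the rises Slc2a5 has 2 boxes, Slc22a16 and Slc13a5 have none, and the GC contents are 60.0% for Slc22a16, 72.0% for Slc2a5 and 68.0% for Slc13a5. These values hold for the printed bases only. Whole windows of the rises have 1 box for Slc22a16, 3 for Slc2a5, and 3 and 1 for Slc13a5. Those of the falls have 6 for Slc1a6, 3 for Slc9a7 and 3 in each window of Slc44a1.

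Some carriers of the superfamily have other symbols, and 22 of 34 such genes and accessory chains on a prepared list were in the table. Of these 22 genes 10 rose and 6 fell from 8 to 18 dpp. Among all genes 31.8% rose and 36.3% fell, and among protein-coding genes 33.1% and 41.4%. The organic anion transporters Slco6c1 and Slco6d1, known from testis, were listed at 0 in all mice of 8 dpp and had 50.6 ± 20.5 and 26.9 ± 14.2 TPM at 18 dpp and 179 ± 4.10 and 119 ± 6.82 TPM in adult samples. Rhcg, an ammonia channel, rose from 1.25 ± 0.75 to 18.3 ± 11.8 TPM (2.84 ± 0.40). The largest falls were those of Mtch1 (-0.94 ± 0.12), a mitochondrial carrier homolog, Npc1 (-0.86 ± 0.12), the lysosomal cholesterol exporter, and Ucp2 (-0.79 ± 0.11), a mitochondrial uncoupling protein.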

How the data were processed

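Libraries were made from poly-A RNA, and the authors aligned 100 bp paired reads with Bowtie 1.0.0 to Ensembl 75 and NONCODE 4 transcripts and estimated TPM with RSEM 1.2.8. The TPM of the juvenile transcript table and of the adult table were used as deposited. The gene table of the juvenile mice, planned for as TPM, was deposited as a rescaled score, exp(log2(TPM + 1)) - 1, which was converted back, after which member values lay within 0.19 TPM of the summed transcripts. Converted values summed to 990305 to 993726 per mouse. TPM keeps no depth, so precision rests on the spread between mice.

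Gene types, chromosomes and positions came from GENCODE M21 (GRCm38) by Ensembl identifier. Comparisons of ages used limma 3.58.1 under R 4.3.3, on log2(TPM + 1), with the 6 ages in 1 model, a prior variance following the mean, and Benjamini-Hochberg adjustment over all 20368 genes at 0.05. Transcript usage was tested with limma where a gene averaged 3 TPM or more at both ages and 2 or more of its transcripts averaged 1 TPM or more at 1 age. Adult levels were not tested. Methods were tested on simulated data. Python 3.11.15 with numpy 2.4.6, pandas 2.3.3 and matplotlib 3.10.9 did the rest. The stage lists that the authors also deposited were not used.

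Members follow from their symbols and the authors' expression filter, but the choice of this gene family and of the lists was made with earlier results of these data known. Substrate classes follow the subfamily number. Named members are the 8 with the highest mean level, the 10 largest rises and 10 largest falls from 8 to 18 dpp whose mice do not overlap, the 2 largest in each direction in each interval, 28 listed carriers, the 5 highest adult means, the 3 largest usage changes, and the largest rise and fall of each class. For the carriers with other symbols they are the 3 largest rises and falls, Bsg and Emb. Values of some genes that meet this rule are not reported here. Replicates are individual mice. Titles number the last 2 mice of 14 dpp 6 and 7, and library indexes of the ages up to 12 dpp recur at later ages. How libraries were pooled for sequencing is not given in the sources used here.

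Alternatives covered the pseudocount, the filter, median-of-ratios factors, a prior variance without a trend, fits of 2 ages alone, mouse number as a block, mice 1 to 3 against later-numbered mice, usage thresholds, and leaving out each sample.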

Additional observations from a re-analysis of the deposited data

Results flagged for a closer look

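Of 360 groups of 4 or 5 samples in the named members, 25 had 1 sample outside Dixon's 95% limit, in 19 members, where chance flags about 1 in 20 groups. In mid-range genes of 18 dpp, Slc25a31 had 178 TPM in mouse 5 against 149 to 156 TPM in the others, Slc25a15 had 4.46 TPM in mouse 5 against 2.75 to 3.14, and Slc52a2 had 17.4 TPM in mouse 1 against 12.8 to 14.2. Slc38a1 had 1.47 TPM in mouse 4 of 18 dpp against 0.56 to 0.75, and 3.26 TPM in mouse 2 of 14 dpp against 1.68 to 2.00. Slc22a14 stood apart at 3 ages, with 0.48 TPM in mouse 5 of 10 dpp, 0.11 TPM in mouse 5 of 16 dpp and 3.32 TPM in mouse 1 of 18 dpp, the only value that put it in the table.

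Slc25a53 was high in 1 mouse at each of 3 ages, with 15.3 TPM in mouse 5 of 12 dpp, 18.1 TPM in mouse 7 of 14 dpp and 13.8 TPM in mouse 4 of 16 dpp. Mouse 7 of 14 dpp also had 14.0 TPM of Slc2a8 against 12.2 to 12.4 in the others, and 239 TPM of Slc52a3 against 258 to 265. Mice with the same number at different ages are different animals. Mouse 1 of 14 dpp had 0.92 TPM of Slc16a7 against 1.80 to 2.14 in the others, and 0.89 TPM of Slc25a2. Mouse 1 of 10 dpp had 34.7 TPM of Slc12a2 against 29.5 to 30.6. Mouse 1 of 12 dpp had 1.15 TPM of Slc25a2.

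At 10 dpp Slc4a5 had 7.23 TPM in mouse 4 against 4.45 to 4.93, Slc2a5 had 2.38 TPM in mouse 5 against 0.67 to 0.97, and Slc9c1 had 0.07 TPM in mouse 2 against 0 in the others. At 12 dpp Slc2a1 had 41.3 TPM in mouse 4 against 32.7 to 34.4, Slc35e3 had 18.1 TPM in mouse 2 against 14.6 to 15.3, and Slc25a54 had 0.33 TPM in mouse 3 against 0. In adult samples Slc6a8 had 1.51 TPM in sample 2 against 0.41 to 0.53, and Slc9a7 had 0.08 TPM in sample 4 against 0.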

How the results depend on the processing

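The count of members that rose from 8 to 10 dpp was 8, and 1 when only these ages entered the model, 3 with mouse number as a replicate block, and 2 to 9 when each mouse was left out in turn. Falls from 14 to 16 dpp numbered 34, and 19 without the filter and 20 with median-of-ratios factors, which also gave 73 in place of 112 falls from 16 to 18 dpp. Called usage changes were 15, with 9 in genes of at least 10 TPM, 0 with the replicate block and 7 to 17 when a mouse was left out. Leaving out each mouse gave no fall from 8 to 10 dpp, 44 to 51 rises and 17 to 28 falls from 10 to 12 dpp, 0 to 1 of each from 12 to 14 dpp, 19 to 27 and 17 to 41 from 14 to 16 dpp, 40 to 43 and 100 to 121 from 16 to 18 dpp, 77 to 84 and 91 to 109 from 8 to 18 dpp, and 216 to 222 members that differed among the ages. Leaving out mice 4 and 5 at 18 dpp gave 1 rise from 12 to 14 dpp. In adult samples 132 to 136 members reached 3 TPM. Mouse numbers did not pair the samples, since each mouse was sampled at 1 age. Deviations from the age means correlated between -0.25 and 0.25 in same-numbered mice (57 pairs). In mice of different number and age the range was -0.32 to 0.24 (268 pairs).

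The 18 against 8 dpp difference changed sign for 5 named members, none of them called. These were Slc11a2 (0.067) and Slc25a4 (0.040) with median-of-ratios factors, and Slc29a1 with the replicate block (-0.053), the mouse-set covariate (-0.045) and without mice 4 and 5 of 18 dpp (-0.12). Slc2a1 gave -0.027 with the block, -0.0071 with the covariate and -0.17 without mice 4 and 5 of 18 dpp, where Slc4a5 gave -0.026. When each mouse was left out, Slc29a1 ranged from -0.015 to 0.14, Slc2a1 from -0.063 to 0.11 and Slc4a5 from -0.081 to 0.43. Over all named members and settings 2157 values kept direction and call, 35 lost and 11 gained the call, and 15 changed sign. The cause was not tested.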

Other observations

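Subfamilies differed in how many of their genes reached 3 TPM in at least 1 juvenile mouse. All but 3 of the 47 Slc25 genes, 21 of 27 Slc35 genes and 10 of 14 Slc39 genes were in the table, while of 25 Slc22 genes 8 were, of 21 Slc6 genes 7 and of 13 Slc5 genes 4. The 8 Slc22 members gave 6 rises and 1 fall, and their summed level was 161 ± 9.23 TPM at 8 dpp, 253 ± 88.9 TPM at 18 dpp and 666 ± 26.5 TPM in adult samples. The 8 Slc38 members gave 5 falls and 2 rises, with sums of 475 ± 25.5, 284 ± 35.8 and 126 ± 4.37 TPM. The 10 Slc9 members, 8 of them exchangers of sodium and protons and 2 the binding partners Slc9a3r1 and Slc9a3r2, gave 5 rises and 3 falls, with sums of 135 ± 1.90, 250 ± 44.5 and 501 ± 14.7 TPM.

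Among genes of pyruvate handling outside the Slc symbols, Mpc2, a subunit of the mitochondrial pyruvate carrier, rose from 84.8 ± 4.20 TPM at 8 dpp to 206 ± 41.5 TPM at 18 dpp and had 368 ± 12.8 TPM in adult samples. Its partner Mpc1 had 67.8 ± 1.73, 67.2 ± 6.601 and 36.01 ± 2.55 TPM and did not pass the test (limma adjusted p = 0.881). These genes were named after their values were seen.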
